A study of Homo sapiens with 6 samples.

Results

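The translation initiation factors are the proteins that bring the ribosome, the initiator tRNA and the mRNA together. Their genes were taken from the array as those whose symbol starts with EIF1 to EIF6, leaving out the eIF2 kinases, and 47 of 18132 measured genes were members. The members were read by 152 probe sets that each name 1 gene, and each gene is represented by the probe set with the highest mean signal over the 6 arrays. Total RNA was hybridised to Affymetrix arrays from 3 samples of cells labelled HCT-116, an established human colorectal carcinoma line, treated with the vehicle DMSO, and from 3 samples treated with AAPK, a compound known here by its code. All 6 labels carry one treatment entry of 10 µM for 48 h, and the 10 µM is read here as the dose of AAPK. Per the labels, all samples share an RPMI medium with serum, and the cells are described as expressing much Aurora-A and PLK-1. The series title calls the compound a dual inhibitor of these mitotic kinases, and the design compares treated with vehicle cells.

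Initiation begins when eIF2, bound to GTP, carries the initiator tRNA to the small ribosomal subunit, where eIF1, eIF1A, eIF3 and eIF5 assemble with it. The mRNA is brought in by eIF4F, made of the cap-binding protein eIF4E, the scaffold eIF4G and the helicase eIF4A, and the 4E-BP proteins keep eIF4E from eIF4G when they are not phosphorylated. After the start codon is found, eIF5 promotes GTP hydrolysis on eIF2, eIF5B joins the large subunit, and eIF2B reloads eIF2 with GTP. Phosphorylation of the eIF2 alpha subunit blocks eIF2B and lets the transcription factor ATF4 be translated, so these factors lie at the entry to the amino acid stress response.

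The arrays were alike within a group, with Pearson correlations over all probe sets of 0.9976 to 0.9983, against 0.9942 to 0.9954 between groups. The epithelial keratins KRT8 and KRT18 were bright, with their highest probe sets at the 99.4th and 99.7th percentile of all probe sets. EPCAM, an epithelial adhesion protein that HCT-116 is known to carry, lay between 3.20 and 3.52 log2 units on its 3 probe sets, no higher than the 2.41th percentile on any. CDH1 (E-cadherin), KRT19 and VIL1 were also below the 25th percentile on every probe set, which makes 4 of 9 epithelial markers. The other epithelial markers, CDX1, CDX2 and CEACAM5, reached the 64.4th, 36.7th and 35.5th percentile on their highest probe sets. Blood, fibroblast and endothelial markers ranged on theirs from the 0.849th (LUM) to the 86.8th percentile (HBB), so percentiles alone cannot settle which cells these were. The 4 low markers go against the label HCT-116, while KRT8 and KRT18 do not. The cells are named here only as labelled. Of the 9 epithelial markers KRT8 rose, by 0.17 ± 0.05 (limma adjusted p = 0.0402), and KRT18 stood apart upward at 0.08 without passing (adjusted p = 0.282). The part of these markers in the results was not tested. No blood (4 genes), fibroblast (5 genes) or endothelial marker (4 genes) passed limma's threshold; 0, 0 and 1 had an unadjusted p under 0.05.

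Of the 47 initiation factor genes, 15 differed between AAPK and DMSO at the threshold of adjusted p 0.05 (limma), 9 higher and 6 lower, while 32 did not pass. That is 31.9% of the members, where 15.4% of all 18132 genes passed, 8.11% higher and 7.26% lower. The members are bright genes: 42 of them lay above the median signal, of which 15 passed (35.7%), against 24.8% of all genes above the median. All changes were small, from -0.42 to 0.43 on the log2 scale, with a median of 0.03 beside -0.02 over all genes. Of the 47 members, 11 passed with a change of at least 0.25, where 1472 of all 18132 genes did (8.12%). The lowest array of one group lay above the highest of the other for 16 members upward and 11 downward (57.4%), where 31.9% of all genes stood apart so. Neither this share nor the count with a change of at least 0.25 was set against genes above the median signal alone. With quantile normalisation the split was 7 higher and 10 lower in place of 9 and 6. The number higher was 5 without DMSO replicate 1, without DMSO replicate 2 or without AAPK replicate 2.

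**Figure D1:**
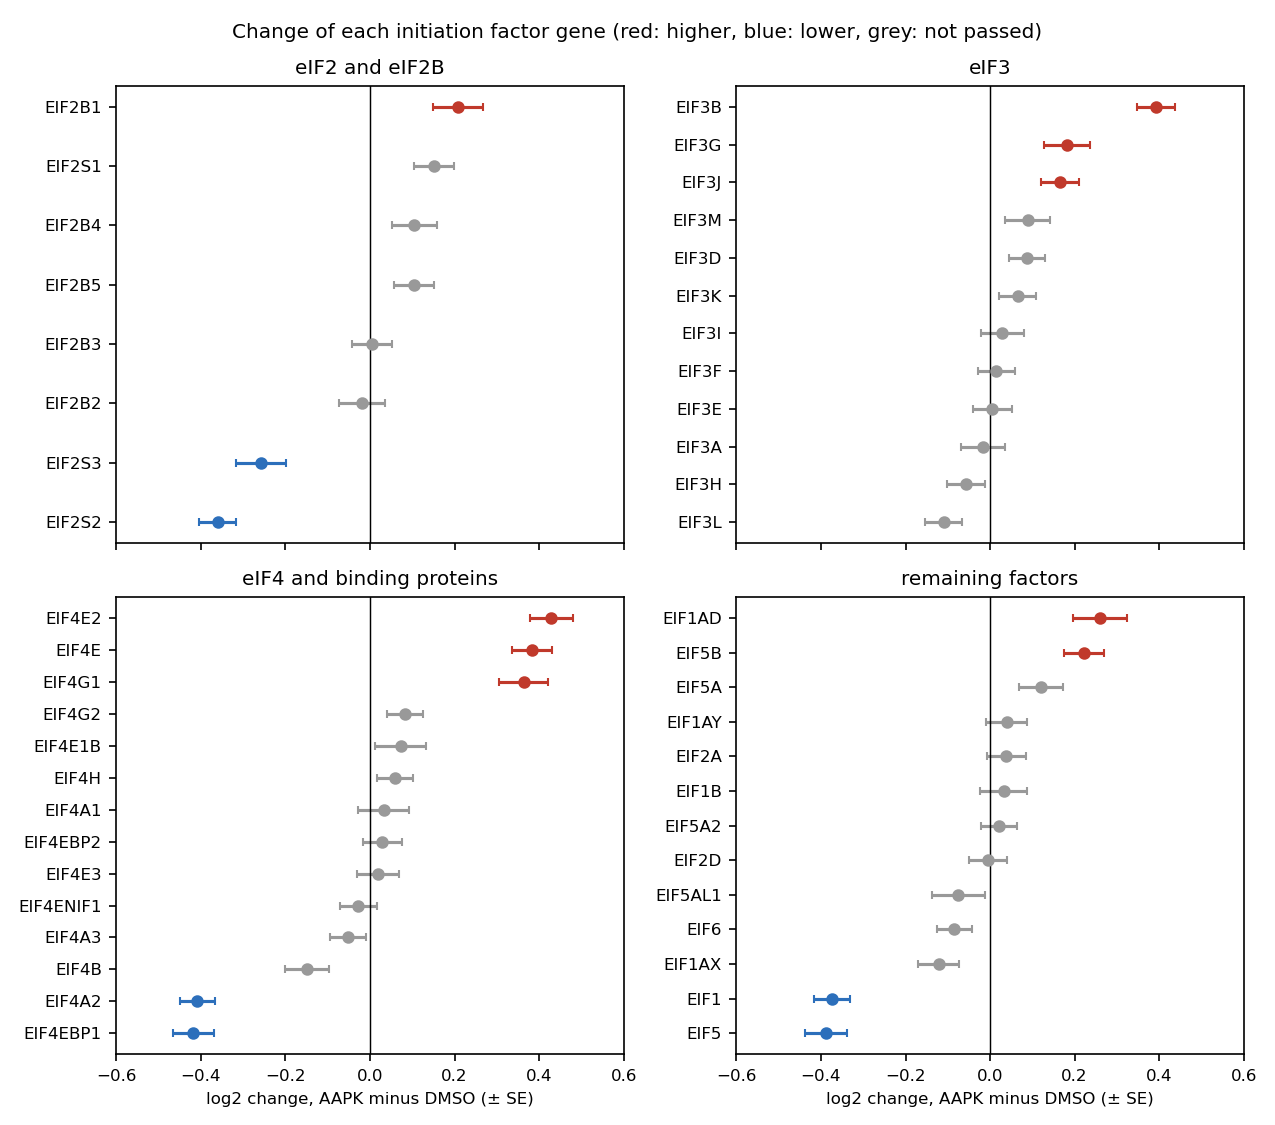
Log2 change (AAPK minus DMSO, x axis, bars are ± SE) of the 47 initiation factor genes in 4 groups, coloured by whether they passed adjusted p 0.05. Genes past the threshold in both directions appear in every group but eIF3, where EIF3B leads at 0.39 and none passed downward. In eIF3, EIF3L (-0.11), EIF3H (-0.06) and EIF3A (-0.02) lie below 0 without passing. EIF3C, named only together with EIF3CL, is not shown.

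In eIF2 the subunits did not move together. EIF2S2, the beta subunit, and EIF2S3, the gamma subunit that binds GTP and the tRNA, fell, while EIF2S1, the alpha subunit that the stress kinases phosphorylate, was at 0.15 and did not pass on its brightest probe set. EIF2S2 read 10.32, 10.25 and 10.28 log2 units with DMSO and 9.92, 9.95 and 9.90 with AAPK. All 3 AAPK arrays lay below all 3 DMSO arrays, a fall of 0.36 ± 0.04 (SE, n = 3 per group, limma adjusted p = 0.000389), or 1.28-fold lower. EIF2S3 was at 11.57, 11.62 and 11.67 on DMSO and 11.35, 11.27 and 11.47 on AAPK. The groups stood apart here too, with more spread among the AAPK arrays, and the change was -0.26 ± 0.06 (limma adjusted p = 0.0134). The EIF2S3 call was just lost without AAPK replicate 2 (-0.21, limma adjusted p = 0.0514), and its probe sets averaged to -0.16. Its 3 other probe sets were at -0.10, -0.13 and -0.17. None of them passed (limma adjusted p = 0.0637 to 0.207 over all single-gene probe sets).

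EIF2S1 read 8.33, 8.23 and 8.32 on DMSO and 8.46, 8.44 and 8.43 on AAPK. The groups did not overlap, but the change of 0.15 ± 0.05 missed the threshold (limma adjusted p = 0.0527). Its 4 other probe sets ran from 0.06 to 0.43, all upward. EIF2S1 passed in 7 of the 15 alternatives, among them median centring (0.17, adjusted p = 0.0349), its most variable probe set (0.42, adjusted p = 0.00129) and its probe sets averaged (0.25, adjusted p = 0.00324). It did not pass when any 1 array was left out (0.12 to 0.17, adjusted p = 0.0756 to 0.155), with quantile normalisation (0.13, adjusted p = 0.0784) or with the replicate block (adjusted p = 0.101). The log2 difference between EIF2S1 and EIF2S2 within an array moved by 0.51 between the groups. It went from -1.99 ± 0.04 in DMSO to -1.48 ± 0.03 in AAPK (SD, n = 3). The two-sided exact permutation p was 0.1, the smallest that 3 arrays against 3 allow. This pair and those below were chosen with the values known, so their p-values add no support to the single-gene changes.

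Of the 5 genes of eIF2B, the exchange factor, 2 had an unadjusted limma p under 0.05, as had 4860 of all 18132 genes. Of the 5, 1 passed (20%, beside 15.4% of all genes), the alpha subunit EIF2B1. It read 8.61, 8.58 and 8.71 on DMSO and 8.83, 8.94 and 8.75 on AAPK, so that the lowest AAPK array stood just above the highest DMSO array. The rise was 0.21 ± 0.06 (limma adjusted p = 0.0383). It was lost without DMSO replicate 1 (0.20, adjusted p = 0.122), DMSO replicate 2 (0.18, adjusted p = 0.117), AAPK replicate 1 (0.21, adjusted p = 0.0932) or AAPK replicate 2 (0.16, adjusted p = 0.135). The replicate block lost it too. EIF2B5, the catalytic epsilon subunit, was at 7.69, 7.59 and 7.62 on DMSO and 7.75, 7.70 and 7.75 on AAPK, a difference of 0.10 that did not pass (limma adjusted p = 0.183). EIF2B4 stood at 0.10, EIF2B3 at 0.00 and EIF2B2 at -0.02. EIF2B4 passed on its other probe set, at 0.23 (limma adjusted p = 0.0119 over all single-gene probe sets). For eIF2 and eIF2B together the counts were 1 higher and 2 lower of 8. That is 37.5%, beside 15.4% of all genes and 24.8% of those at or above the median signal.

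Of the 12 measured genes of eIF3, the large scaffold that binds the small ribosomal subunit, 3 rose and 0 fell, while 9 did not pass. These 3 are 25% of the group, beside 15.4% of all genes and 24.8% of those at or above the median signal. An unadjusted limma p under 0.05 was seen for 4 of the 12, and for 4860 of all 18132 genes. The median was 0.05. EIF3B, a core subunit with an RNA recognition motif and a beta propeller, led them. Its signal was 10.83, 10.79 and 10.87 with DMSO and 11.20, 11.25 and 11.23 with AAPK. The groups were clearly separate, with a rise of 0.39 ± 0.04 (limma adjusted p = 0.00026), or 1.31-fold. All 7 of its other probe sets were above 0, from 0.03 to 0.41.

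EIF3J, a loosely bound subunit, rose by 0.17 ± 0.04 (limma adjusted p = 0.0308), and EIF3G, another core subunit, by 0.18 ± 0.05 (adjusted p = 0.0489). Both are at the edge of the threshold. EIF3J was lost without DMSO replicate 1 (0.15, adjusted p = 0.129), DMSO replicate 2 (0.17, 0.066), AAPK replicate 1 (0.18, 0.0633), AAPK replicate 2 (0.16, 0.0825) or AAPK replicate 3 (0.15, 0.081), and with quantile normalisation (0.12, 0.113). EIF3G was lost without DMSO replicate 1 (0.21, adjusted p = 0.0617), DMSO replicate 2 (0.17, 0.12), DMSO replicate 3 (0.16, 0.132), AAPK replicate 1 (0.19, 0.11) or AAPK replicate 2 (0.14, 0.168), and its probe sets averaged to 0.08. EIF3J was also lost with its probe sets averaged, on its most variable probe set and with the replicate block. The EIF3G call was lost under these settings too, and with quantile normalisation. EIF3B was the 1 eIF3 gene past the threshold whichever array was left out.

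The other 9 subunits stayed between -0.11 and 0.09. EIF3A, the largest subunit, read 8.87, 8.92 and 9.02 on DMSO and 8.90, 8.88 and 8.98 on AAPK. These overlap, and the difference was -0.02 (limma adjusted p = 0.882). Against EIF3A, EIF3B moved by 0.41 within the arrays (exact permutation p = 0.1, the smallest possible). EIF3L had the lowest value, with 10.74, 10.68 and 10.73 on DMSO and 10.60, 10.63 and 10.59 on AAPK, at -0.11 ± 0.04 (adjusted p = 0.133). It passed with quantile normalisation (-0.17, adjusted p = 0.0175) and with limma-trend (-0.11, adjusted p = 0.0209). EIF3C, the remaining core subunit, was named on this array only together with its near-identical copy EIF3CL and is not among the 12. All of its probe sets were below 0, from -0.23 to -0.11. Those at -0.23 and -0.17 passed downward (limma adjusted p = 0.00964 and 0.043 over all probe sets but controls).

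The eIF4 genes held the widest spread of the family. Of 14 members, 3 rose and 2 fell, and 9 did not pass. The share past the threshold was 35.7%, beside 15.4% of all genes and 24.8% of those at or above the median signal. Those that rose were EIF4E2 and EIF4E, which encode cap-binding proteins, and EIF4G1, the scaffold. EIF4A2, a helicase, and EIF4EBP1, which encodes the eIF4E inhibitor 4E-BP1, fell.

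EIF4E read 8.76, 8.70 and 8.82 with DMSO and 9.13, 9.14 and 9.17 with AAPK. The AAPK arrays were all higher and closely grouped, a rise of 0.38 ± 0.05 (limma adjusted p = 0.000407), 1.31-fold. Its probe sets averaged to 0.17, with 3 that passed and 4 dimmer ones between -0.24 and 0.13 that did not. EIF4E2, the homologue 4EHP that binds caps without eIF4G and is known as a repressor, was at 8.87, 8.79 and 8.92 on DMSO and at 9.23, 9.34 and 9.29 on AAPK. Its rise of 0.43 ± 0.05 (limma adjusted p = 0.000357) was the largest in the family, with no overlap of the groups, and its probe sets averaged to 0.24. EIF4G1 read 9.68, 9.71 and 9.78 on DMSO and 10.10, 10.18 and 9.98 on AAPK. The AAPK arrays spread more widely but all lay above DMSO, with a rise of 0.36 ± 0.06 (limma adjusted p = 0.00201).

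EIF4EBP1 read 10.29, 10.27 and 10.30 with DMSO and 9.91, 9.90 and 9.79 with AAPK. It had the largest fall of the family, -0.42 ± 0.05 (limma adjusted p = 0.000275), 1.34-fold lower with no overlap, and its other 2 probe sets were at -0.43 and -0.31. The gene is known as a target of ATF4. Set against its partner within each array, EIF4E minus EIF4EBP1 moved by 0.80, from -1.53 ± 0.04 in DMSO to -0.72 ± 0.09 in AAPK (SD, n = 3; exact permutation p = 0.1, the smallest possible). EIF4EBP2, the second 4E-BP, was at 0.03 and did not pass (limma adjusted p = 0.754). A single one of its 4 other probe sets passed, at 0.16 (adjusted p = 0.0491 over the single-gene probe sets). EIF4ENIF1, which carries eIF4E into the nucleus, was at -0.03.

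EIF4A2 read 11.36, 11.35 and 11.33 on DMSO and 10.91, 10.94 and 10.95 on AAPK. Both groups were tight and far apart, with a fall of 0.41 ± 0.04 (limma adjusted p = 0.000145). Of its 3 other probe sets, the 2 brighter ones also passed downward, at -0.22 and -0.32, while the dimmest was at 0.23 and did not pass, and all together averaged to -0.18. EIF4A1, its close paralog and the main helicase of eIF4F, was at 7.96, 7.82 and 7.96 on DMSO and 7.92, 8.05 and 7.87 on AAPK. The groups overlapped, and the difference was 0.03 (limma adjusted p = 0.795). Its most variable probe set was at 0.25 (adjusted p = 0.0351). A further 3 probe sets that also name a readthrough transcript of SENP3 and EIF4A1 were at 0.06, 0.08 and 0.11 and did not pass. These were far brighter, with mean signals of 12.20, 12.19 and 10.73 log2 units beside 7.93 for the set used. The set used may therefore not give the level of EIF4A1. On that set, EIF4A1 minus EIF4A2 moved by 0.44 (exact permutation p = 0.1, the smallest possible).

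The other eIF4 genes ran from -0.15 to 0.08. EIF4B, which stimulates the helicase, had the lowest value at -0.15 (limma adjusted p = 0.0933); all 4 of its other probe sets were negative, from -0.35 to -0.12. It passed downward with quantile normalisation (-0.21, adjusted p = 0.0161), limma-trend (adjusted p = 0.0116), genes under the median signal left out (adjusted p = 0.0345), its probe sets averaged (-0.18, adjusted p = 0.0412) and its most variable set (-0.35, adjusted p = 0.0028). It did not pass in the other 10 alternatives (adjusted p = 0.0611 to 0.233). EIF4H, a related stimulator, was at 0.06 and passed on its other probe set, at 0.24 (adjusted p = 0.0131), and with both averaged, at 0.15 (adjusted p = 0.0186). EIF4G2, which encodes the cap-independent homologue DAP5, was at 0.08, and passed with limma-trend (adjusted p = 0.034). EIF4A3, the helicase of the exon junction complex, was at -0.05, and EIF4E3 and EIF4E1B at 0.02 and 0.07.

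**Figure D2:**
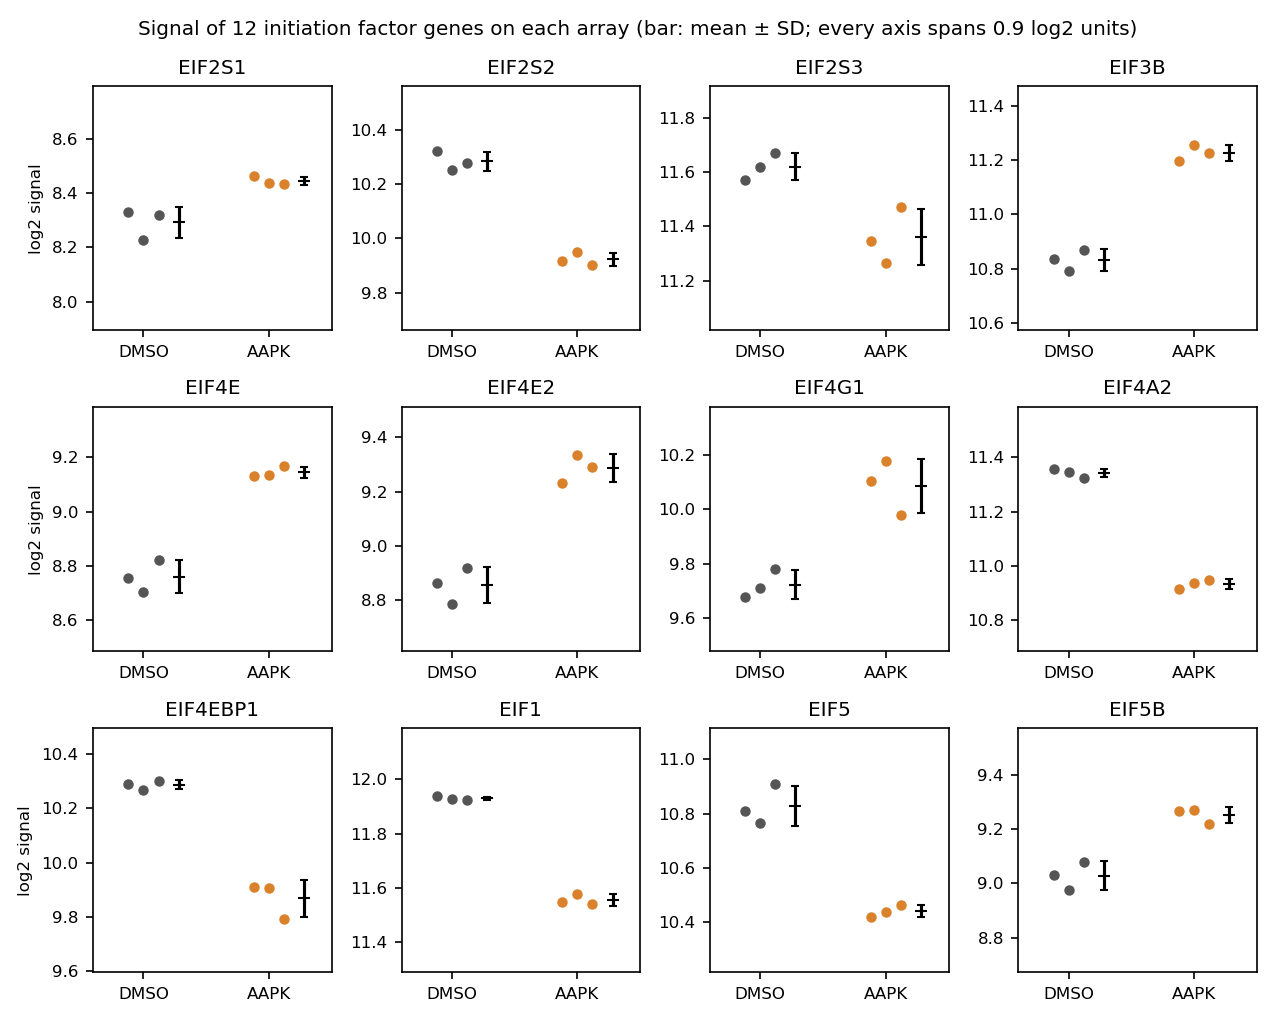
Log2 signal (y axis) of 12 initiation factor genes on the 3 DMSO and 3 AAPK arrays, each point 1 array, with the mean ± SD beside it. In each panel the groups are apart; EIF2S1 is the one gene shown that missed the threshold (adjusted p = 0.0527).

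The promoters of these eIF4 genes are shown because members of one complex moved in opposite directions. RefSeq promoter windows of 300 bases (250 before to 50 after the start, GRCh38.p14) were at hand for 40 of the 47 members. The ATF4 and C/EBP element, TGATGNAA or TTNCATCA on either strand, was in 3.63% of all promoter windows and in those of 1 member, EIF4E3. Windows were matched for 8 of the 9 members that rose and 4 of the 6 that fell, and these did not hold it. EIF4EBP1, EIF2S2 and EIF3G had no window and were not searched. The heat shock half-site pair GAANNTTC was in 6.79% of all windows and in those of 2 members, EIF4A2 and EIF5. The E-box CACGTG, the site known for MYC and chosen here after the values were seen, was in 7.20% of all windows and in 10 of 54 member windows (18.5%). By gene, 10 of the 40 searched members held it (25%). Among them were 2 of the 8 searched members that rose, EIF4E and EIF4G1, and 0 of the 4 that fell. The others with it did not pass, and a link between the E-box and the direction of change was not tested. The 250 bases before the start follow, 5′ to 3′, with E-box letters in capitals for EIF4E (chr4:98929134-98929383, minus strand) and EIF4G1 (chr3:184314356-184314605, plus strand, 1 of its windows) and the heat shock letters in capitals for EIF4A2 (chr3:186783327-186783576, plus strand).
EIF4E: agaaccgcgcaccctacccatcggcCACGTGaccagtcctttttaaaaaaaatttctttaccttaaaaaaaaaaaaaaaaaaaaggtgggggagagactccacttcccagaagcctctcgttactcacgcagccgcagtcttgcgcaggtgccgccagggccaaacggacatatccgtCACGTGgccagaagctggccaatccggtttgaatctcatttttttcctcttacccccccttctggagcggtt
EIF4G1: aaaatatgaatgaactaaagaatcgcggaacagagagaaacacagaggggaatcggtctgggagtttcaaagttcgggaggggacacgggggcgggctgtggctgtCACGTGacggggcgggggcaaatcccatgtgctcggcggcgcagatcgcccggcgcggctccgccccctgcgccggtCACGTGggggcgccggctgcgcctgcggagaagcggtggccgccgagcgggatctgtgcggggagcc
EIF4A2: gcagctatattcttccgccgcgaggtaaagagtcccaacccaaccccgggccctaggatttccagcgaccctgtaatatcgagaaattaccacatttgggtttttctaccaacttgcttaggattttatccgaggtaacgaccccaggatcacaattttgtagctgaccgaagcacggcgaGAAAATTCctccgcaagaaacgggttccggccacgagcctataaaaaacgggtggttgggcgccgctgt
The capitals start 225 and 72 bases before the start in EIF4E, 144 and 67 before it in EIF4G1 and 69 before it in EIF4A2. A match describes letters and says nothing of binding in these cells.

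Among the 13 remaining factors, 2 fell and 2 rose. That is 30.8%, beside 15.4% of all genes and 24.8% of those at or above the median signal. The falls were those of EIF1 and EIF5, which act against each other at the start codon: eIF1 keeps scanning ribosomes from starting at poor sites, and eIF5 favours the start. EIF1 read 11.94, 11.93 and 11.92 with DMSO and 11.55, 11.58 and 11.54 with AAPK. The arrays of a group were nearly equal, and the fall was 0.37 ± 0.04 (limma adjusted p = 0.000232), 1.30-fold, with -0.44 to -0.38 on its 3 other probe sets. EIF5 read 10.81, 10.77 and 10.91 on DMSO and 10.42, 10.44 and 10.47 on AAPK. It fell without overlap by 0.39 ± 0.05 (limma adjusted p = 0.000534); 5 of its 6 other probe sets shared the sign, and all averaged to -0.23.

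EIF5B, the GTPase that joins the ribosomal subunits, was at 9.03, 8.98 and 9.08 on DMSO and 9.27, 9.27 and 9.22 on AAPK. It rose by 0.22 ± 0.05 (limma adjusted p = 0.00885), and by 0.38 on its most variable probe set. EIF1AD, named for its eIF1A-like domain, rose by 0.26 ± 0.06 (adjusted p = 0.0186), from 7.06, 6.98 and 7.19 to 7.29, 7.43 and 7.29. Its groups did not overlap, but the call was lost without DMSO replicate 1 (0.25, adjusted p = 0.0651), DMSO replicate 2 (0.21, 0.0637) or AAPK replicate 2 (0.21, 0.0725), and its other probe set was at 0.02. The EIF1AD call was also lost with its probe sets averaged and with the replicate block.

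The other 9 of these factors did not pass, from -0.12 to 0.12. EIF1AX, which encodes eIF1A, was at -0.12 (limma adjusted p = 0.136), and EIF6, which keeps the subunits apart, at -0.08 (adjusted p = 0.239). Both passed downward with quantile normalisation (-0.18 and -0.15, adjusted p = 0.0337 and 0.0388). EIF5A, the hypusine-bearing factor that helps elongation, was at 0.12 (adjusted p = 0.165), and passed with limma-trend (adjusted p = 0.0256), with array weights (0.15, adjusted p = 0.0494) and on its most variable probe set (0.22, adjusted p = 0.0402). EIF2A and EIF2D, which can deliver tRNA without eIF2, were at 0.04 and -0.0045, EIF1B at 0.03 and EIF5A2 at 0.02. The other, dimmer probe set of EIF2A was lower, at -0.18 (limma adjusted p = 0.046 over the single-gene probe sets), against the sign of the brightest. EIF5AL1, a near copy of EIF5A, was at -0.08 and EIF1AY at 0.04.

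**Figure D3:**
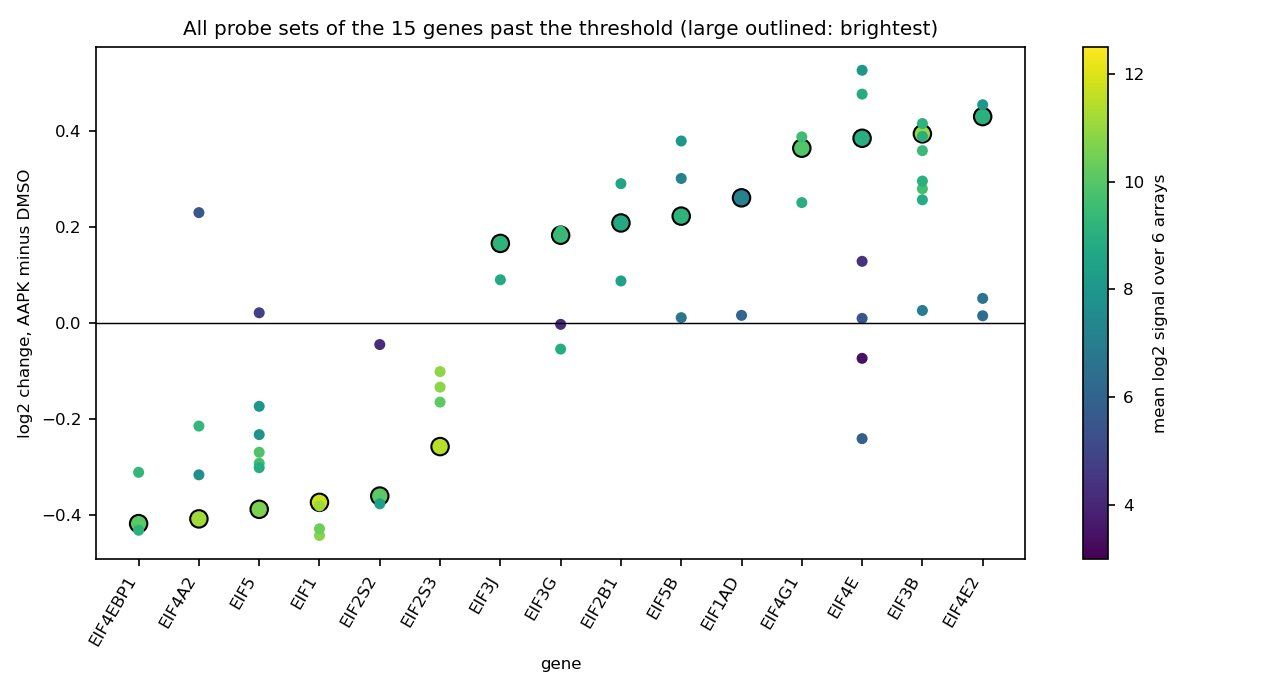
Log2 change (y axis) of every single-gene probe set of the 15 genes past the threshold, coloured by mean log2 signal, with the brightest probe set large and outlined. Sets of the opposite sign to the brightest appear for EIF3G, EIF4A2, EIF4E and EIF5, none past the threshold, at most 0.23 for EIF4A2 and -0.24 for EIF4E.

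Several members have close copies (EIF1 and EIF1B, EIF4A1 and EIF4A2, EIF5A and EIF5AL1), so a signal may be shared between them. For 9 of the 15 genes past the threshold the brightest probe set carries the suffix _s or _x. Affymetrix gives these to sets whose probes can match transcripts of more than 1 gene. The arrays measure mRNA, and neither protein nor phosphorylation of eIF2 or 4E-BP1 was measured. The array medians were nearly equal as deposited (6.464 to 6.498 log2 units), so every change is read relative to the other genes.

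Of 14 accessory initiation proteins, 6 rose and 2 fell (57.1%), where 15.4% of all genes passed and 24.8% of those at or above the median signal. BZW1, an eIF5 mimic that competes with eIF5 for eIF2, had the largest change, a rise of 0.53 ± 0.04 (limma adjusted p = 3.64e-05). BZW1 minus EIF5 moved by 0.92 within the arrays (exact permutation p = 0.1, the smallest possible). The pair was chosen with both changes known, so this adds no support to them. BZW2, the paralog of BZW1, rose by 0.28. Elongation and release factors had 4 higher and 0 lower of 14 (28.6%), near that 24.8%. They were led by GSPT1, the release factor eRF3a, at 0.45 (limma adjusted p = 0.000146). An unadjusted limma p under 0.05 was seen for 8 of 14, and for 4860 of all 18132 genes. The elongation factors EEF1A1 and EEF2 were both at -0.10 and did not pass. Of 73 cytosolic ribosomal protein genes and paralogs, 4 rose and 3 fell (9.59%), led by RPL22L1 at -0.63.

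Of 19 regulators of initiation, 4 rose and 4 fell (42.1%), where 15.4% of all genes passed and 24.8% of those at or above the median signal. DDIT4, an mTORC1 inhibitor that ATF4 can induce, had the largest change at -1.12 ± 0.05 (limma adjusted p = 5.04e-07). The other 3 that fell were IMPACT, an inhibitor of the eIF2 kinase GCN2, at -0.53 (adjusted p = 0.000402), PDCD4, which binds eIF4A and blocks it, at -0.35 (adjusted p = 0.00167), and RPS6KB1, which encodes the S6 kinase downstream of mTORC1, at -0.32 (adjusted p = 0.00598). Those that rose were GCN1, an activator of GCN2, at 0.31, MTOR at 0.26, ABCF1 at 0.21 and RHEB, an activator of mTORC1, at 0.17. Among 11 eIF2 kinases, phosphatase subunits and partners, 1 rose and 2 fell (27.3%, near that 24.8%). The adaptor NCK1 led them at -0.50 (limma adjusted p = 0.000166). Of 33 ATF4 pathway genes 28 fell and 1 rose, with a median of -0.57; that list had been seen to fall in earlier results of these data, and is given only as the setting of EIF4EBP1. Its largest change was that of DDIT3, at -2.24 (adjusted p = 1.88e-08).

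**Figure D4:**
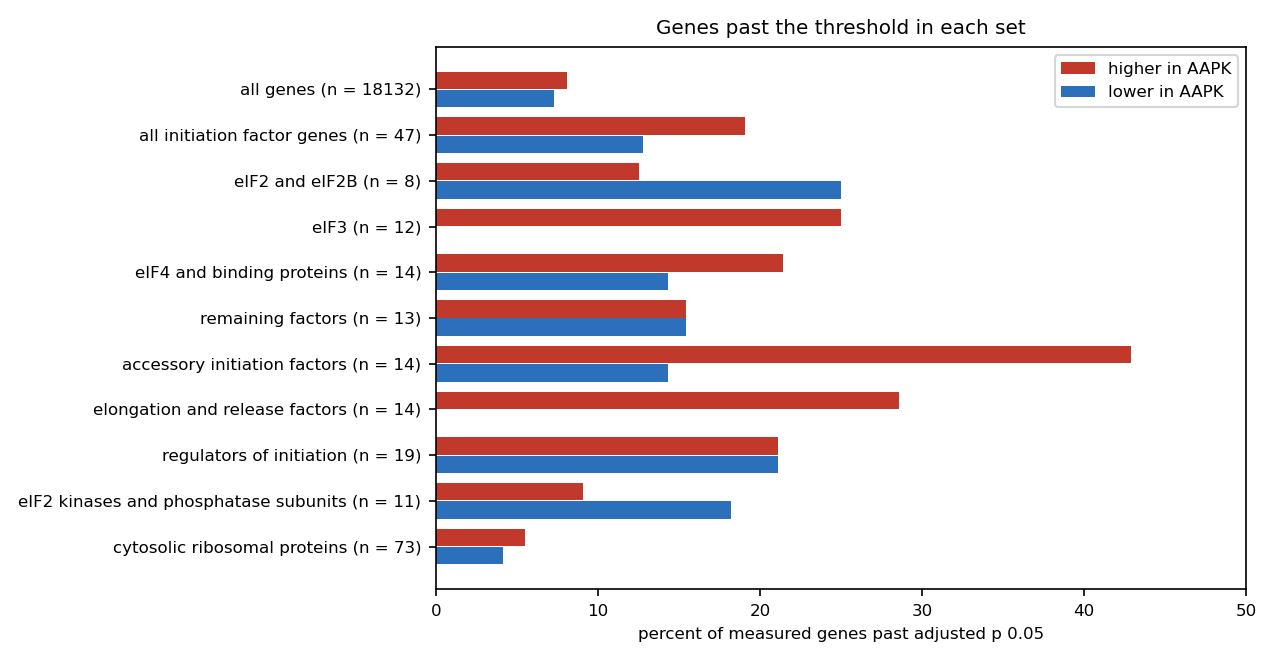
Percent of the measured genes past adjusted p 0.05 (x axis), higher or lower in AAPK, for all genes, the initiation factors, their groups and related lists. Initiation factors passed at 31.9% against 15.4% for all genes, and ribosomal proteins at 9.59%.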

How the data were processed

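The authors deposited log2 signal values for 49395 probe sets on 6 arrays; the log2 scale is read from the values (2.83 to 14.25). How background, normalisation and summarisation were done is not given in the sources used here. Names came from the platform annotation: 44988 named 1 symbol, 1832 several and 2473 none, and 102 were controls. The members took the single-symbol probe sets only, and the brightest per gene. The log2 values of all 18132 genes were fitted on group alone with limma (version 3.58.1, under R 4.3.3), by lmFit with moderated variances and two-sided tests. P-values were adjusted by Benjamini-Hochberg over all genes, at a threshold of 0.05; other probe sets were adjusted over all 44988. The fit was also run on simulated data with independent errors, and no result of that run is used here. Such data cannot tell whether the samples were separate cultures.

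The members and lists were chosen with earlier results of these data known, so no list was tested. Values on all arrays are given for every member past the threshold with a change of at least 0.25, for the largest rise and fall of each group and for EIF2S1, EIF2B5, EIF3A, EIF4E, EIF4G1, EIF4A1 and EIF4EBP1, and for EIF5B beside them; of other lists the largest change past the threshold is named, and BZW2, EEF1A1, EEF2 and the further regulators were chosen after their values were seen. Pairs of genes within an array (5 pairs, chosen with values known) were compared by exact permutation. That choice fixed the separation of the groups, so these p-values test nothing beyond the single-gene changes. No label tells whether cultures were separate, so the p-values rest on a spread among samples that may be only technical; 3 arrays per group limit the precision. Alternatives were 2 normalisations, 2 signal filters, 2 choices of probe set, limma-trend, array weights, a replicate block and leaving out each array.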

Additional observations from a re-analysis of the deposited data

Results flagged for a closer look

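EIF3C lies outside the comparison of genes because its 5 probe sets also name EIF3CL. In a limma fit over all 49293 probe sets but controls, where 12.7% passed, 2 of these 5 sets were lower in AAPK: the first at -0.23 ± 0.05 (SE, adjusted p = 0.00964) and another at -0.17 ± 0.05 (adjusted p = 0.043). The first set went from 10.00 ± 0.03 with DMSO to 9.76 ± 0.05 with AAPK (SD, 3 arrays each). The other 3 were at -0.18, -0.14 and -0.11 and did not pass. No single-gene eIF3 member passed downward in the comparison of genes.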

How the results depend on the processing

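Of the 15 genes past the threshold, 10 kept their direction and call under all 15 alternatives: EIF2S2, EIF3B, EIF4EBP1, EIF4A2, EIF4G1, EIF4E, EIF4E2, EIF5, EIF1 and EIF5B. EIF2S3, EIF2B1, EIF3J, EIF3G and EIF1AD lost theirs under at least 1. Why the settings differ was not tested. Leaving out a sample also leaves fewer arrays, and the part of that was not tested either.

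Quantile normalisation gave 10 members lower, 1 eIF3 gene higher and 1 lower, and 4 of the remaining factors lower; the median change was 0.00322 over the family and -0.0151 in eIF3. Median centring gave medians of 0.0493 for the family, 0.0671 for eIF3 and 0.0508 for eIF4. Averaging a gene's probe sets gave 0.0594 for the family, 0.074 for eIF3, 0.079 for eIF4 and -0.0325 for the remaining factors, with 3 eIF2 and eIF2B genes, 1 eIF3 gene and 1 remaining factor higher. The most variable probe set gave 0.0866, 0.0977 for eIF2 and eIF2B, 0.109 for eIF3, 0.147 for eIF4 and -0.0604 for the remaining factors, with 3 eIF2 and eIF2B, 1 eIF3 and 5 eIF4 genes higher. Of eIF2 and eIF2B, 2 genes were higher with median centring, either signal filter, limma-trend or array weights, and limma-trend put 1 eIF3 gene lower.

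Same-numbered arrays did not deviate together from their group means (correlations -0.0194, -0.227 and -0.0472). With 3 arrays per group this cannot tell whether the numbers pair the samples. With the replicate block 5 members were higher and 6 lower, with 0 eIF2 and eIF2B genes, 1 eIF3 gene and 1 remaining factor higher. Leaving out 1 array gave 5 to 8 members higher. It gave 0 to 1 eIF2 and eIF2B genes higher and 1 to 2 lower (median 0.0239 to 0.0716), and 1 to 2 eIF3 genes higher (median 0.042 to 0.0643). The eIF4 median ran from 0.0159 to 0.0523, and 1 to 2 remaining factors were higher.

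The sign turned in 13 genes that did not pass. With quantile normalisation EIF2B3 was at -0.0062, EIF3E at -0.0634, EIF3F at -0.0335, EIF3I at -0.0377 and EIF1B at -0.0149. With median centring EIF2B2 was at 0.00039, EIF3A at 0.0029 and EIF2D at 0.0155. With probe sets averaged EIF2B2 was at 0.0359, EIF3A at 0.0698, EIF4ENIF1 at 0.0594 and EIF2A at -0.073. With the most variable set EIF2B2 was at 0.0914, EIF3A at 0.157, EIF4ENIF1 at 0.147, EIF5A2 at -0.0388 and EIF2A at -0.18. With array weights EIF2B3 was at -0.0119 and EIF1B at -0.0066. Leaving out 1 array, EIF2B2 ran from -0.0596 to 0.0327, EIF2B3 from -0.0189 to 0.028, EIF3A from -0.0489 to 0.023 and EIF3E from -0.0147 to 0.0344. EIF3F ran from -0.0011 to 0.0364, EIF4E3 from -0.0122 to 0.0465, EIF4A1 from -0.0182 to 0.0684, EIF2D from -0.0196 to 0.0258 and EIF1B from -0.0102 to 0.0804.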
